A study of Mus musculus with 34 samples.

Results

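The response to dexamethasone (Dex) through wild-type (WT) glucocorticoid receptor (GR) was measured by sequencing total RNA from the mouse mammary adenocarcinoma line D4-GFP-mGRwt. The line derives from 3617 cells whose own GR was knocked out, and it stably expresses mouse GR with a GFP tag. All 10 libraries labelled as WT receptor were taken, of 34 in the series, which otherwise holds lines with mutant receptors. The labels give 2 library sets: set 1 has 3 Dex and 3 ethanol (EtOH) libraries, and set 2 has 2 of each. Treatment was 100 nM Dex or the EtOH vehicle for 2 h, after at least 24 h in charcoal-stripped serum to remove steroids. The 10% serum and 5 µg/ml tetracycline of the medium, the GFP tag, the missing endogenous GR and 5% Drosophila S2 cells added at harvest were common to every group. A single line was used, no promoter is named for the receptor, and the labels do not say whether replicates were separate cultures. If they were not, the p-values below cover only the spread between preparations.

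GR is a hormone-activated transcription factor. Without ligand it is held in the cytoplasm by Hsp90 and its co-chaperones. With ligand it enters the nucleus, binds DNA elements built from inverted hexamers, or meets other factors such as AP-1 and NF-kB at their sites, and raises or lowers transcription of nearby genes within minutes to hours. In mammary cells glucocorticoids are known for supporting survival and differentiation, and for restraining inflammatory and growth factor signalling. Dex is a synthetic agonist of GR.

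The 6 libraries of set 1 held 44998213 to 64449628 counted reads each and the 4 of set 2 held 60277930 to 70499796. The receptor transcript Nr3c1 did not pass the test for a change with Dex (-0.03 ± 0.0265 log2, SE, adjusted p = 0.721). It stood at 279, 287 and 278 CPM in the EtOH libraries and 275, 269 and 270.3 CPM in the Dex libraries of set 1, and 327 and 334 against 332 and 331 CPM in set 2. Counts per gene name cannot tell RNA of the tagged receptor from any RNA of the knocked-out gene. Principal component 1 of the log2 values carried 42.7% of the variance and separated the sets, and component 2 carried 12.5% and separated Dex from EtOH. Each Dex library was therefore compared with EtOH of its own set. Replicates of set 2 lay farther apart than those of set 1: the chi-square per gene between replicates was 40.6 in EtOH and 38.8 in Dex of set 2, against 2.87 to 6.01 in set 1. In set 2, EtOH replicate 1 and Dex replicate 2 had mitochondrial shares of 1.31% and 1.44% of counts, and EtOH replicate 2 and Dex replicate 1 had 1.64% and 1.72%. The part of this difference in the set 2 values was not tested. Of 14 luminal epithelial markers 5 were high enough to be tested, with Gata3 at 367 to 1517 counts and Esr1 at 170 to 335, while Epcam, Pgr, Foxa1, Cldn3 and Cldn4 had 0 counts in all 10 libraries and Cdh1 and Krt18 at most 4. Of 9 basal markers 4 were tested, with Mylk at 971 to 1510, Krt14 at 122 to 508 and Trp63 at 56 to 133 counts. Of 15 fibroblast and mesenchymal markers 11 were tested. Vim and Col1a2 were abundant, with Vim at 5006, 4966 and 4928 CPM in EtOH of set 1, while Dcn, Lum, Thy1 and Fap had at most 4 counts and Col1a1 at most 154. Among immune, endothelial and fat cell markers, Kdr, Cldn5, Adgre1, Cd8a and Cfd had 0 counts, whereas Cdh5 had 327 to 640, Lyz2 186 to 295, Cd68 121 to 277 and Emcn 104 to 229.

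Within 2 h, Dex changed 770 of 16540 genes tested (4.66%) at an adjusted p below 0.05 by edgeR's quasi-likelihood test with the set as a block, 449 up (2.71%) and 321 down (1.94%). A gene so called is said below to have risen or fallen. Increases were larger: 91 genes rose and 6 fell at least 2-fold, 44 rose and 3 fell at least 4-fold, and the median size of a called change was 0.353 log2 for increases and 0.262 for decreases. With a 1.5-fold minimum 181 genes (1.09%) were called, of which 158 rose (0.955%) and 23 fell (0.139%). The decreases numbered 15 without EtOH replicate 3 of set 1 or Dex replicate 2 of set 2. Of the 770 genes, 769 had the same sign when each set was taken separately. The exception, Gm23935, was named after its values were seen, and its replicates disagreed. It had 1, 648 and 708 counts in EtOH and 0, 0 and 0 with Dex in set 1. In set 2 it had 6 and 1 against 4 and 6. With a fitted change of -6.54 log2 it is among the 3 genes that fell at least 4-fold. The libraries did not overlap in either set for 417 of the 449 genes that rose and 278 of the 321 that fell. The same was true of 700 of all tested genes (4.23%) in the direction of higher values with Dex and of 522 (3.16%) in the direction of lower ones. Levels are counts scaled to the normalized library size (CPM), and changes are log2 Dex over EtOH with the SE of a fit of 5 Dex and 5 EtOH libraries.

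**Figure D1:**
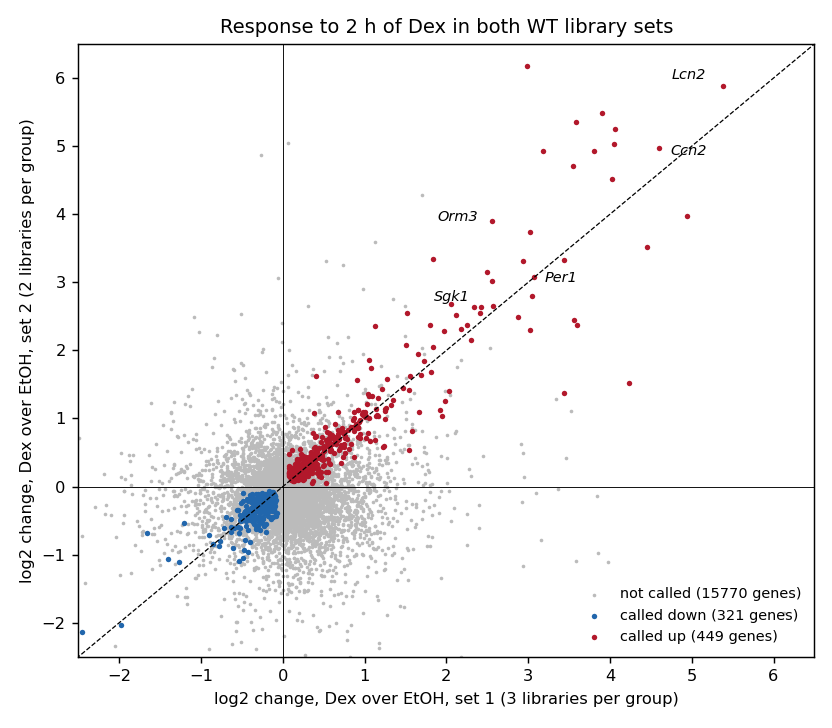
Log2 change with Dex in set 1 (x axis, 3 libraries per group) against set 2 (y axis, 2 per group) for each tested gene, with 449 genes called up in red, 321 called down in blue and the rest in grey, a dashed line of equal change, and 34 genes beyond the axes. Called genes lie in the upper right and lower left, and Lcn2 lies near the top at 5.38 in set 1 and 5.88 in set 2, while the median size of a called decrease over both sets is 0.262.

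Sgk1, a kinase that promotes sodium transport and cell survival and a long-known direct GR target, showed the largest rise in CPM of any called gene. It stood at 147, 149.5 and 150.4 CPM in the EtOH libraries and 801, 797 and 803 CPM in the Dex libraries of set 1, and 125 and 135 against 829 and 797 CPM in set 2. All Dex libraries lay far above all EtOH libraries, and the change was 2.51 ± 0.0403 (adjusted p = 6.35e-18). Per length, its level went from 30.4 to 163 RPKM (CPM per kilobase of exon) in set 1. Sgk1 (mm10 chromosome 10, 21882184 to 21999903, plus strand) has 6 annotated start windows in RefSeq, each from 250 bases before to 50 after a start. The window at chr10:21993640-21993939 is printed because, of the windows of 10197 tested genes, it alone held an exact match, on either strand, to the GR element of AGAACA, 3 bases of any kind and TGTTCT. Capitals mark the match, 189 to 175 bases before the start.

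Sgk1 promoter window, 5′ to 3′ on the plus strand, RefSeq, GRCm38.p6: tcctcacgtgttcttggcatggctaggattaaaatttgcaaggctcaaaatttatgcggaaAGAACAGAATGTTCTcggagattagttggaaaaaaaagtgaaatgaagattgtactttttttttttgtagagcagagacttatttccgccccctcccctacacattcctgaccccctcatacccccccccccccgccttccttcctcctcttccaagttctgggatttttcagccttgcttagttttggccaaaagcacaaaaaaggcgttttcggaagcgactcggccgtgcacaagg

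Near matches, allowing 2 mismatches among the 12 fixed bases, lay in the windows of 6 of 333 genes that rose (1.8%), 4 of 232 that fell (1.72%) and 129 of all 10197 (1.27%). Among genes that rose at least 1.5-fold the number was 4 of 104 (3.85%), and among those that fell at least 1.5-fold it was 1 of 12 (8.33%). With at most 1 mismatch the numbers were 1 of 333 that rose, which is Sgk1, 1 of 232 that fell and 11 of all 10197. The gene that fell was Plpp3 (-0.37), whose change was below 1.5-fold. The closest sites of the called genes past 1.5-fold are printed so that their letters can be compared. Bases equal to the element are in capitals and the spacer and mismatches in lower case.
Sgk1: AGAACAgaaTGTTCT
Gm6093: AGtACAaaaTGTaCT
Fam107a: tGgACAtggTGTTCT
Map7d2: AGgACAcagTGTTCa
Bdnf: AcAACAggcTGTTCa
The first 4 genes rose and Bdnf, which encodes a neurotrophin, fell (-0.62 ± 0.0382). Positions on GRCm38 are chr10:21993701-21993715 for Sgk1, chr13:33569504-33569518 for Gm6093, chr14:8309884-8309898 for Fam107a, chrX:159459134-159459148 for Map7d2 and chr2:109694396-109694410 for Bdnf. The hexamer AGAACA alone, on either strand and including those inside full elements, was in the windows of 15.3% of genes that rose, 14.7% that fell and a like share of all. The AP-1 motif TGANTCA was in 10.2%, 6.9% and 6.66%, and the E-box CACGTG in 14.7%, 11.6% and 11.5%. These are matches of letters near start sites, not measured binding, and distal elements were not searched.

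Acute-phase genes encode proteins that liver and epithelia secrete in inflammation, and glucocorticoids are known to raise such genes. The list used here also holds receptors and transcription factors, and it included several of the largest fold changes. Of 17 tested members, 8 rose and 1 fell, with a median of 0.12 log2 against -0.0018 over all genes. Counts in this and the other lists stand beside a background of 2.71% of all genes rising and 1.94% falling. Lcn2 encodes lipocalin 2, which binds bacterial iron carriers. It stood at 0.227, 0.126 and 0.268 CPM in the EtOH libraries and 10.02, 8.02 and 7.55 CPM in the Dex libraries of set 1, and 0.228 and 0.2195 against 15.2 and 11.3 CPM in set 2. Its EtOH values rest on 8 to 16 counts, the groups did not overlap, and the change was 5.62 ± 0.168 (adjusted p = 4.18e-14). Orm3, an orosomucoid, a plasma carrier of lipophilic drugs, went from 2.32, 1.73 and 1.74 CPM to 11.04, 11.04 and 12.1 CPM in set 1 and from 3.85 and 3.29 to 60.2 and 45.95 CPM in set 2. Its Dex libraries of set 2 lay above those of set 1 as well as above EtOH. Orm1 and Orm2 rose with it, Orm1 with 4, 2 and 0 counts in EtOH and 44, 28 and 40 with Dex in set 1, and 12 and 16 against 178 and 119 in set 2. The Orm genes are near-identical copies, so reads may have been split among them. Il6ra, the receptor subunit for interleukin-6, rose by 1.04 ± 0.0518, and Cp, the copper ferroxidase ceruloplasmin, by 0.43 ± 0.03401. Cp differed in level between sets, at 234, 234 and 228 CPM in EtOH of set 1 and 70.3 and 66.1 in set 2, while its change was 0.42 and 0.44. The transcription factors Cebpb (0.90 ± 0.0779) and Cebpd (0.86 ± 0.115) rose, and the interleukin-4 receptor gene Il4ra fell (-0.20). Serpina3n (0.12), Stat3 (-0.04) and C3 (-0.17) did not pass the test. Saa1, Saa2, Hp, Fgb and Steap4 had 0 counts in every library and were not tested.

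Tsc22d3 (GILZ), which binds NF-kB and AP-1 subunits, stood at 34.5, 34.8 and 31.8 CPM in the EtOH libraries and 184, 177 and 179 CPM in the Dex libraries of set 1, and 25.7 and 23.4 against 139 and 149 CPM in set 2. Fkbp5, an Hsp90 co-chaperone that lowers the receptor's affinity for ligand, went from 85.8, 86.3 and 86.9 CPM to 177, 177 and 173 CPM in set 1 and from 73.3 and 68.8 to 168 and 161 CPM in set 2. Its libraries did not overlap, and the change was 1.10 ± 0.0369 (adjusted p = 2.19e-13). Of other chaperones of the receptor, Hsp90aa1 was at 0.07, Hsp90ab1 at 0.04, the close relative Fkbp4 at 0.01 and the p23 gene Ptges3 at 0.09, none past the test. Dnaja1, a chaperone gene not in the list that follows, rose by 0.33. In the list of chaperones, cofactors and nuclear receptors, 3 of 38 rose (7.89%, beside 2.71% of all genes) and 2 fell (5.26%, beside 1.94%). The others that rose were Vdr, the vitamin D receptor (0.67 ± 0.0347, from 27.1, 25.96 and 26.6 CPM to 42.03, 42.3 and 42.4 CPM in set 1 and from 29.9 and 31.7 to 49.8 and 48.6 CPM in set 2), and the orphan receptor Nr2f2 (0.38 ± 0.0366). Those that fell were the orphan receptor Nr2f1 (-0.22 ± 0.05497) and the chromatin remodeller subunit Arid1a (-0.21). The call of Nr2f1 was lost without Dex replicate 2 or 3 or EtOH replicate 1 or 3 of set 1, or without EtOH replicate 1 of set 2.

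The list of classic GR-induced genes rose broadly, 25 of 33 tested members with 1 falling, and a median of 0.90. It was drawn up with earlier results of these data known, so its high share of calls is no independent support. Its summed level was 2118 to 2156 CPM in EtOH and 3934 to 3960 CPM with Dex in set 1, and 1959 to 2070 against 3978 to 4042 in set 2. Dusp1, a phosphatase that inactivates MAP kinases, stood at 8.98, 8.49 and 8.51 CPM in the EtOH libraries and 17.9, 16.6 and 16.7 CPM in the Dex libraries of set 1, and 13.2 and 15.04 against 34.3 and 26.4 CPM in set 2. Zfp36 (tristetraprolin), which speeds the decay of cytokine mRNAs, went from 4.55, 4.86 and 5.82 CPM to 9.85, 10.02 and 9.13 CPM in set 1 and from 8.08 and 8.12 to 16.8 and 14.3 CPM in set 2. The groups of both genes were apart in each set, with changes of 1.03 ± 0.0674 and 0.94 ± 0.0717. Klf9, a zinc-finger repressor, rose by 1.15 ± 0.0475, the metal-binding Mt1 by 1.40 ± 0.0543 and Ampd3, an AMP deaminase, by 1.78 ± 0.0587. Glul, glutamine synthetase, went from 100.0, 102 and 104 CPM to 182, 183 and 189 CPM in set 1 and from 84.8 and 86.6 to 171 and 166 CPM in set 2, a change of 0.90 ± 0.0319. Klf15, a zinc-finger factor of amino acid and lipid metabolism, had 21, 21 and 9 counts in EtOH and 54, 50 and 56 with Dex in set 1, and 8 and 10 against 50 and 32 in set 2. The member that fell was Snai2, a repressor of epithelial genes (-0.82 ± 0.0764). Those not past the test were Ddit4 (-0.13), Cdkn1c (-0.00), Anxa1 (0.06), Nfkbia (0.11), Gadd45b (0.22), Rgs2 (0.22) and Hsd11b1 (0.32). Zbtb16, Mt2, Sult1a1, Tat and Il1r2 had 0 to 4 counts per library and were not tested.

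**Figure D2:**
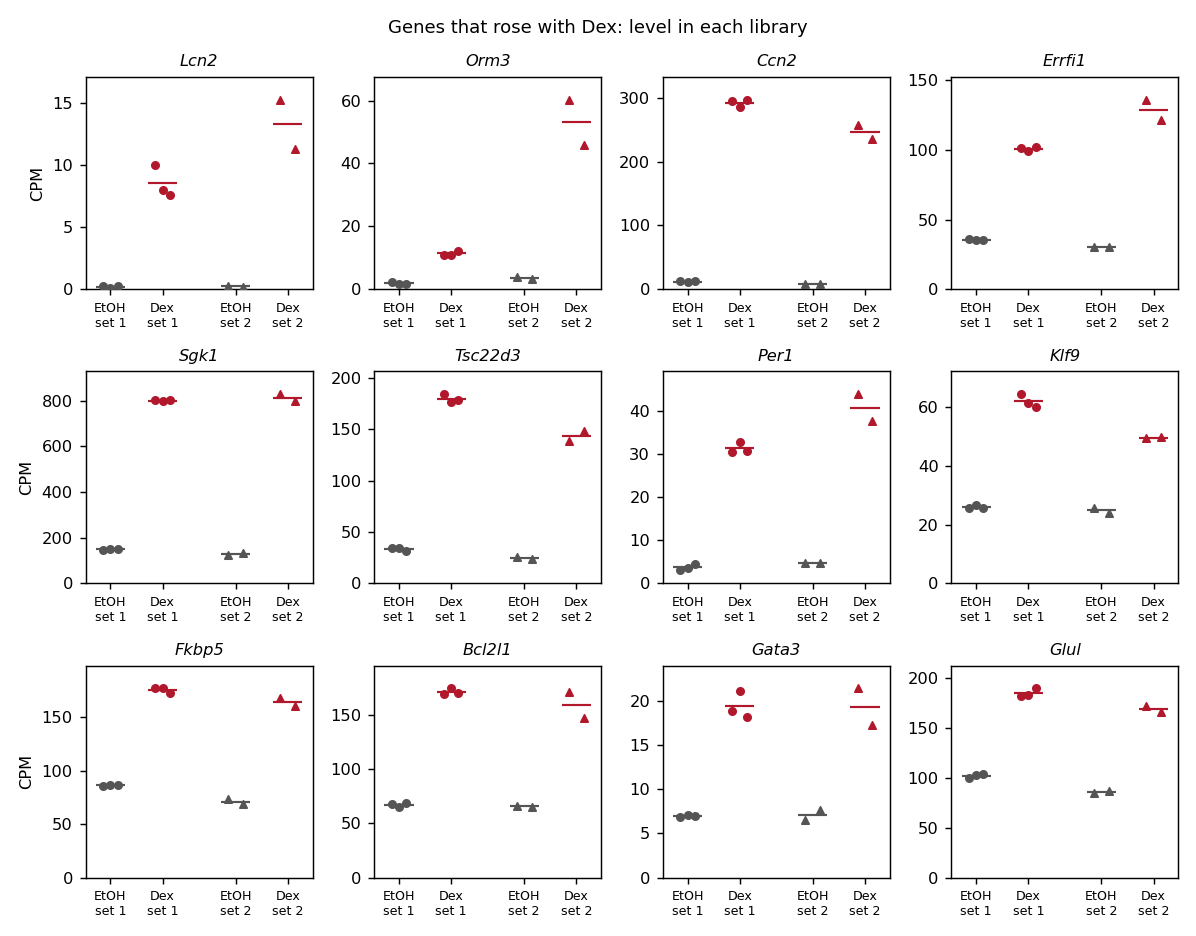
CPM (y axes, each from 0) of 12 genes that rose, with a point per library, EtOH in grey and Dex in red, circles for set 1, triangles for set 2 and bars for group means. Dex and EtOH libraries are apart in each panel and set, and Orm3 stands higher in Dex of set 2 than of set 1.

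Matrix-associated genes and genes of plasminogen activation changed in both directions. Ccn2 (connective tissue growth factor), a secreted matricellular protein, stood at 12.2, 11.1 and 12.8 CPM in the EtOH libraries and 295, 286 and 297 CPM in the Dex libraries of set 1, and 8.02 and 7.68 against 258 and 235 CPM in set 2, a change of 4.74 ± 0.06301 (adjusted p = 4.84e-19). Plau encodes urokinase, a protease that activates plasminogen. It stood at 15.1, 15.3 and 16.4 CPM in the EtOH libraries and 8.095, 8.38 and 8.58 CPM in the Dex libraries of set 1, and 10.1 and 11.3 against 6.89 and 6.17 CPM in set 2 and fell by 0.83 ± 0.0616. Plat, the tissue-type activator, fell (-0.30 ± 0.0584), while the urokinase receptor Plaur (-0.13) did not pass the test. In the plasminogen and coagulation list the thrombin receptor F2r rose (0.13), and thrombomodulin Thbd (-0.23) and Thbs1 fell.

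Thbs1, thrombospondin 1, a matrix glycoprotein that activates TGF-beta, showed the largest loss of CPM of any called gene. It stood at 2837, 2799 and 2885 CPM in the EtOH libraries and 1987, 2123 and 1968 CPM in the Dex libraries of set 1, and 3153 and 2929 against 2222 and 2204 CPM in set 2, a change of -0.48 ± 0.0301 (adjusted p = 2.64e-09). In bulk RNA, fewer cells expressing a gene and less RNA per cell cannot be told apart. Thbs1 is also a target of YAP and TGF-beta signalling, and that list split: 4 of 24 rose and 9 fell, with a median of -0.12. Those that rose included Ccn2, the TEAD factor Tead4 (1.22 ± 0.0408, from 20.4, 21.8 and 21.9 CPM to 47.00, 48.7 and 48.3 CPM in set 1 and from 26.7 and 27.9 to 69.6 and 65.00 CPM in set 2) and Skil (0.19). Ankrd1, a cardiac-type ankyrin protein and standard YAP readout, went from 218, 209 and 204 CPM to 133, 124 and 131 CPM in set 1 and from 415 and 421 to 312 and 303 CPM in set 2, a change of -0.59 ± 0.0427. Also down were Tgif1 (-0.41), Smad6 (-0.37), Ajuba (-0.30), Ccn1 (-0.30), Nuak2 (-0.28), Smad7 (-0.26) and Amotl2 (-0.21). Ccn1, a relative of Ccn2, thus changed in the opposite direction. In the BMP, Id and Wnt list, Id1 (0.90 ± 0.0382) and Id2 (0.25 ± 0.0366) rose and Id3 (-0.32 ± 0.0397) fell. All 3 encode inhibitors of helix-loop-helix factors. Gas1 (-0.60 ± 0.0564), a membrane protein that binds hedgehog ligands, Hes1 (-0.39) and Notch1 (-0.36) fell too, so that 2 of 17 rose and 4 fell.

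Clock genes were represented by 4 of 17 members that rose and none that fell, against 13 that did not pass. Per1 (mm10 chromosome 11, 69095217 to 69109960), a repressor of the CLOCK and BMAL1 activators, stood at 3.200, 3.49 and 4.64 CPM in the EtOH libraries and 30.6, 32.9 and 30.8 CPM in the Dex libraries of set 1, and 4.81 and 4.83 against 43.96 and 37.7 CPM in set 2. Its change of 3.07 ± 0.0736 was nearly equal in the sets (3.07 and 3.08). Per2, its relative, went from 14.5, 14.9 and 14.98 CPM to 24.1, 25.7 and 24.5 CPM in set 1 and from 22.1 and 23.1 to 36.3 and 33.5 CPM in set 2 (0.69 ± 0.0434). Nfil3 (0.66 ± 0.0449), a bZIP repressor, and Bhlhe41 (0.48 ± 0.05096), a helix-loop-helix repressor, also rose. The other clock genes ran from -0.32 (Nr1d1) to 0.11 (Cry2), with Arntl, which encodes BMAL1, at -0.02 and Clock at 0.02.

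Among regulators of apoptosis 4 of 20 rose and 1 fell. Bcl2l1 (mm10 chromosome 2, 152780668 to 152831728), which encodes anti-apoptotic BCL-XL, stood at 67.7, 65.3 and 68.8 CPM in the EtOH libraries and 169, 174 and 170.4 CPM in the Dex libraries of set 1, and 66.3 and 65.2 against 171 and 147 CPM in set 2. No library overlapped, and the change was 1.32 ± 0.0389 (adjusted p = 3.74e-14). Mcl1, another anti-apoptotic member, rose by 0.16 ± 0.0289, and the repressor Bcl6 by 0.66 ± 0.0742. Casp4, an inflammatory caspase, rose as well (0.38). The pro-apoptotic Bcl2l11 (BIM) went from 26.2, 27.9 and 28.1 CPM to 22.5, 20.6 and 20.3 CPM in set 1 and from 29.4 and 29.7 to 22.3 and 20.4 CPM in set 2, a change of -0.41 ± 0.0448. Bbc3 (PUMA), another BH3-only gene carried in the growth arrest list, fell (-0.43 ± 0.0703). In that list 5 of 27 rose and 4 fell. The kinase inhibitor Cdkn1a (p21) rose by 0.67 ± 0.0556 and the stress gene Gadd45g by 0.76 ± 0.04803, whereas Gadd45a, of the same family, fell by 0.68 ± 0.0477. Plk2, a polo-like kinase that responds to p53, stood at 234, 246 and 237 CPM in the EtOH libraries and 134, 129 and 135 CPM in the Dex libraries of set 1, and 291 and 308 against 169 and 165 CPM in set 2 and fell by 0.85 ± 0.0295. Sesn1 (0.55), Plk3 (0.54) and Phlda3 (0.23) rose. Of 34 cell cycle genes 0 were called by edgeR, 6 had an unadjusted p below 0.05 and DESeq2 called 1 up, with changes from -0.14 (E2f2) to 0.13 (Rrm2).

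Growth factors and MAP kinase signalling switch on genes that feed back on them. Of 25 such genes 12 fell and none rose, with a median of -0.20. Dusp4 (mm10 chromosome 8, 34807297 to 34819894), a nuclear MAP kinase phosphatase, stood at 66.6, 70.6 and 64.2 CPM in the EtOH libraries and 44.1, 43.4 and 44.5 CPM in the Dex libraries of set 1, and 104 and 102 against 57.9 and 52.6 CPM in set 2. Phlda1, a pleckstrin-homology protein induced by growth factors, went from 20.9, 18.7 and 19.7 CPM to 11.00, 11.4 and 12.5 CPM in set 1 and from 32.9 and 29.9 to 19.01 and 17.1 CPM in set 2. Hbegf, a ligand of the EGF receptor, went from 17.5, 16.9 and 16.4 CPM to 11.3, 10.3 and 11.1 CPM in set 1 and from 21.4 and 20.1 to 14.9 and 14.9 CPM in set 2. In all 3 genes each Dex library lay below each EtOH library of its set, with changes of -0.73 ± 0.0501, -0.78 ± 0.0523 and -0.57 ± 0.0499. The phosphatases Dusp6 (-0.47), Dusp10 (-0.45), Dusp8 (-0.43), Dusp5 (-0.42) and Dusp14 (-0.41) fell with them. So did the receptor signalling inhibitors Spry1 (-0.45) and Spry2 (-0.20), the ligand Ereg (-0.37) and the receptor Epha2 (-0.26). Dusp1 and Errfi1, an inhibitor of the EGF receptor that stood at 36.3, 35.2 and 35.2 CPM in the EtOH libraries and 101, 99.2 and 102 CPM in the Dex libraries of set 1, and 30.2 and 30.6 against 136 and 122 CPM in set 2, are feedback genes outside this list and rose.

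Immediate early and AP-1 genes fell in 10 of 24 members and rose in 1, with a median of -0.22. Ier3, an early gene that modulates survival, went from 27.8, 28.2 and 28.5 CPM to 19.4, 19.8 and 18.8 CPM in set 1 and from 32.6 and 26.2 to 19.8 and 19.1 CPM in set 2 (-0.56 ± 0.0518). Btg1, an antiproliferative gene, went from 210.2, 213 and 214 CPM to 151, 147 and 146 CPM in set 1 and from 200.4 and 198 to 128 and 134 CPM in set 2 (-0.56 ± 0.0288). Klf10 (-0.44 ± 0.0407), a TGF-beta-induced early factor, Klf4 (-0.45 ± 0.0454), Egr2 (-0.46), Fosl1 (-0.36), Ier5 (-0.30), Fosl2 (-0.29), Jun (-0.28) and Myc (-0.22 ± 0.0523) fell, and Klf6 rose (0.16). Myc was not called without Dex replicate 1 or 3 of set 1. Fos was low and did not pass, at 0.617, 0.7704 and 0.594 CPM in the EtOH libraries and 0.613, 0.4504 and 0.512 CPM in the Dex libraries of set 1, and 0.942 and 1.08 against 0.946 and 1.204 CPM in set 2.

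Inflammatory and NF-kB genes fell in 7 of 23 members and rose in 2, with a median of -0.12, and 14 others of the list of 37 were too low to be tested. Irf1, a transcription factor of interferon responses, stood at 45.2, 41.6 and 45.1 CPM in the EtOH libraries and 30.1, 32.3 and 30.5 CPM in the Dex libraries of set 1, and 30.2 and 27.2 against 19.8 and 20.5 CPM in set 2. Csf1, the growth factor of macrophages, went from 416, 399.5 and 405 CPM to 314, 316 and 318 CPM in set 1 and from 391 and 432 to 369 and 322 CPM in set 2. The chemokine Ccl2 went from 14.5, 13.7 and 13.9 CPM to 10.9, 10.7 and 11.3 CPM in set 1 and from 32.6 and 26.5 to 22.4 and 22.3 CPM in set 2. The 3 changes were -0.51 ± 0.0421, -0.32 ± 0.0385 and -0.38 ± 0.0547, with no overlap of libraries within a set. Ptgs2, the inducible cyclooxygenase, fell over both sets (-0.33 ± 0.0567), by 0.48 in set 1 and by 0.10 in set 2, where the change alone did not pass. Nfkbie (-0.23), Relb (-0.19) and Nfkb2 (-0.17), parts of the NF-kB system, fell slightly. The chemokine Cxcl1 (0.57 ± 0.0935) and the deubiquitinase Tnfaip3 (0.24) rose. Nfkbia, the NF-kB inhibitor often named as a GR target, stood at 42.9, 41.1 and 41.8 CPM in the EtOH libraries and 42.5, 40.4 and 40.9 CPM in the Dex libraries of set 1, and 32.5 and 25.96 against 36.05 and 36.7 CPM in set 2 and was not called.

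**Figure D3:**
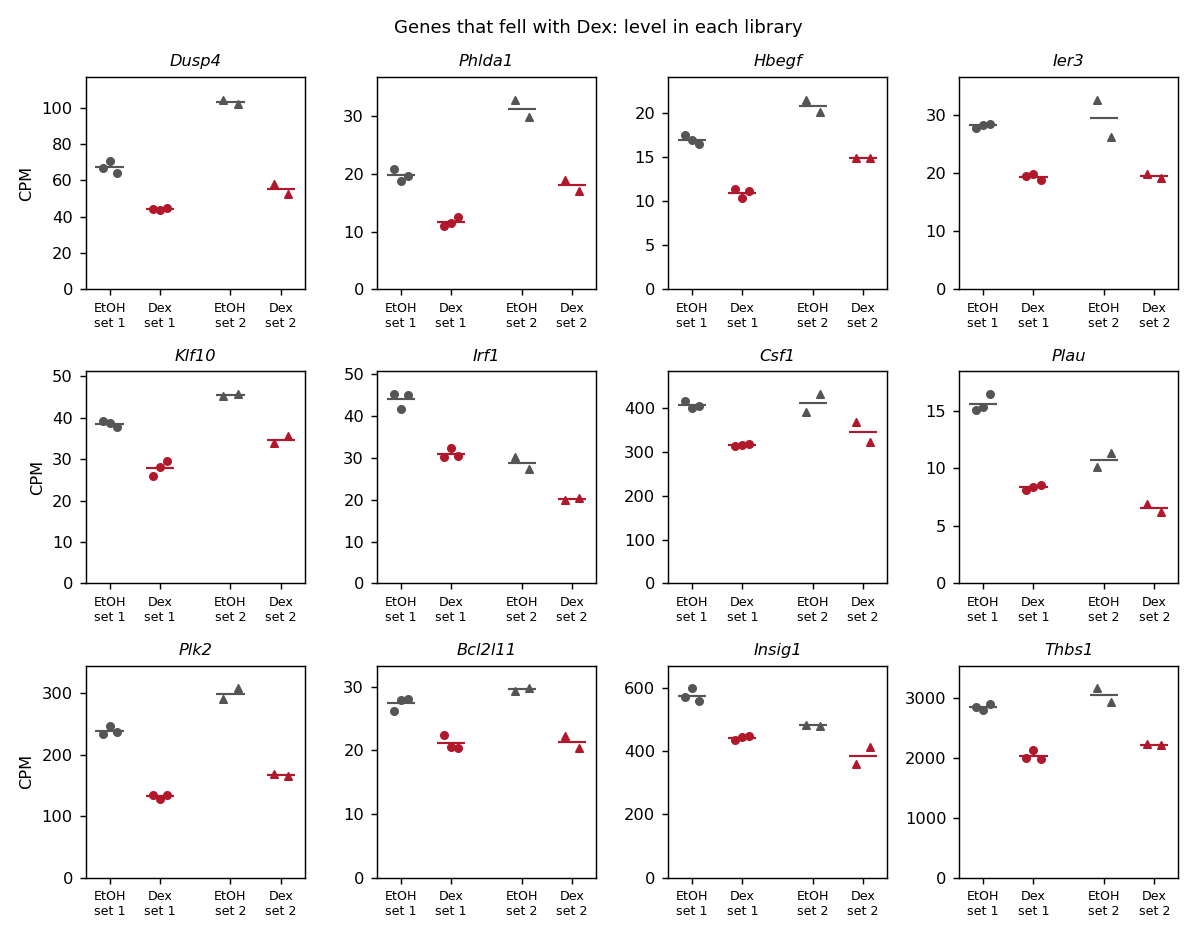
CPM (y axes, each from 0) of 12 genes that fell, with a point per library, EtOH in grey and Dex in red, circles for set 1, triangles for set 2 and bars for group means. Dex libraries lie below the EtOH libraries of their set in each panel, by a smaller factor than the increases, with Plk2 at -0.85 and Thbs1 at -0.48 log2.

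In insulin and FOXO signalling 8 of 25 rose and 3 fell. Arrdc2, an alpha-arrestin, stood at 8.95, 8.18 and 8.07 CPM in the EtOH libraries and 44.5, 43.1 and 39.5 CPM in the Dex libraries of set 1, and 7.48 and 8.22 against 51.6 and 46.1 CPM in set 2 (2.46 ± 0.0637). Irs2 (0.92 ± 0.0429), an adaptor of the insulin receptor, Pik3r1 (0.49 ± 0.0348), the regulatory subunit of PI3 kinase, and Foxo3 (0.46 ± 0.0351) rose. The adaptor Irs1 (-0.42) and the arrestin Txnip (-0.42) fell, so Irs1 and Irs2 changed in opposite directions, as did the arrestins Txnip and Arrdc2. In lipid storage 7 of 24 rose and 4 fell. Fabp4, a fatty acid carrier, stood at 2.05, 2.08 and 2.299 CPM in the EtOH libraries and 17.3, 17.8 and 18.1 CPM in the Dex libraries of set 1, and 2.63 and 1.84 against 15.1 and 15.9 CPM in set 2 (2.94 ± 0.0843), and the droplet coat gene Plin4 went from 175, 174 and 179 CPM to 313, 309.6 and 286 CPM in set 1 and from 370.0 and 370.2 to 672 and 527 CPM in set 2 (0.75 ± 0.0493). Lpin1 (-0.44 ± 0.0319), a phosphatidate phosphatase, and Pparg (-0.38), the adipogenic nuclear receptor, fell. Adipocyte defining genes were near 0, with Adipoq at no more than 2 counts. In cholesterol synthesis none of 26 rose and 3 fell, among them Insig1 (-0.36 ± 0.0351, from 570.1, 598 and 557 CPM to 436, 445 and 446 CPM in set 1 and from 482 and 479.5 to 358 and 411 CPM in set 2), a retention factor of the sterol sensor, and Srebf1 (-0.11 ± 0.0297). Srebf1, which encodes the lipogenic factor SREBP1, was not called without Dex replicate 1 or 3 or any EtOH replicate of set 1, or without EtOH replicate 1 or Dex replicate 2 of set 2. The synthase Hmgcs1 (-0.03) did not pass. In the integrated stress response Ddit3 (-0.47 ± 0.0468), Chac1 (-0.42 ± 0.0433), Ppp1r15a (-0.21 ± 0.0472) and Trib3 (-0.16) fell, Cebpb rose and 16 of 21 did not pass, Atf4 among them (-0.07). In glucose and glutamine metabolism Glul and Got1 (0.13 ± 0.0353), an aspartate aminotransferase, rose, and Slc38a2 (-0.11 ± 0.03104), a glutamine transporter, fell, of 22. The call of Got1 was lost without each library in turn, apart from EtOH replicate 2 of set 1. That of Slc38a2 was lost without any library of set 1, or without EtOH replicate 2 or Dex replicate 2 of set 2. Of 20 hypoxia targets 2 rose (10.0%, beside 2.71% of all genes) and 1 fell (5.0%, beside 1.94%). Of 15 ion and water transport genes Sgk1 rose and the water channel gene Aqp5 fell (-0.37 ± 0.0365, from 583, 559.6 and 563 CPM to 437, 443 and 442 CPM in set 1 and from 630.3 and 532 to 448 and 448 CPM in set 2).

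**Figure D4:**
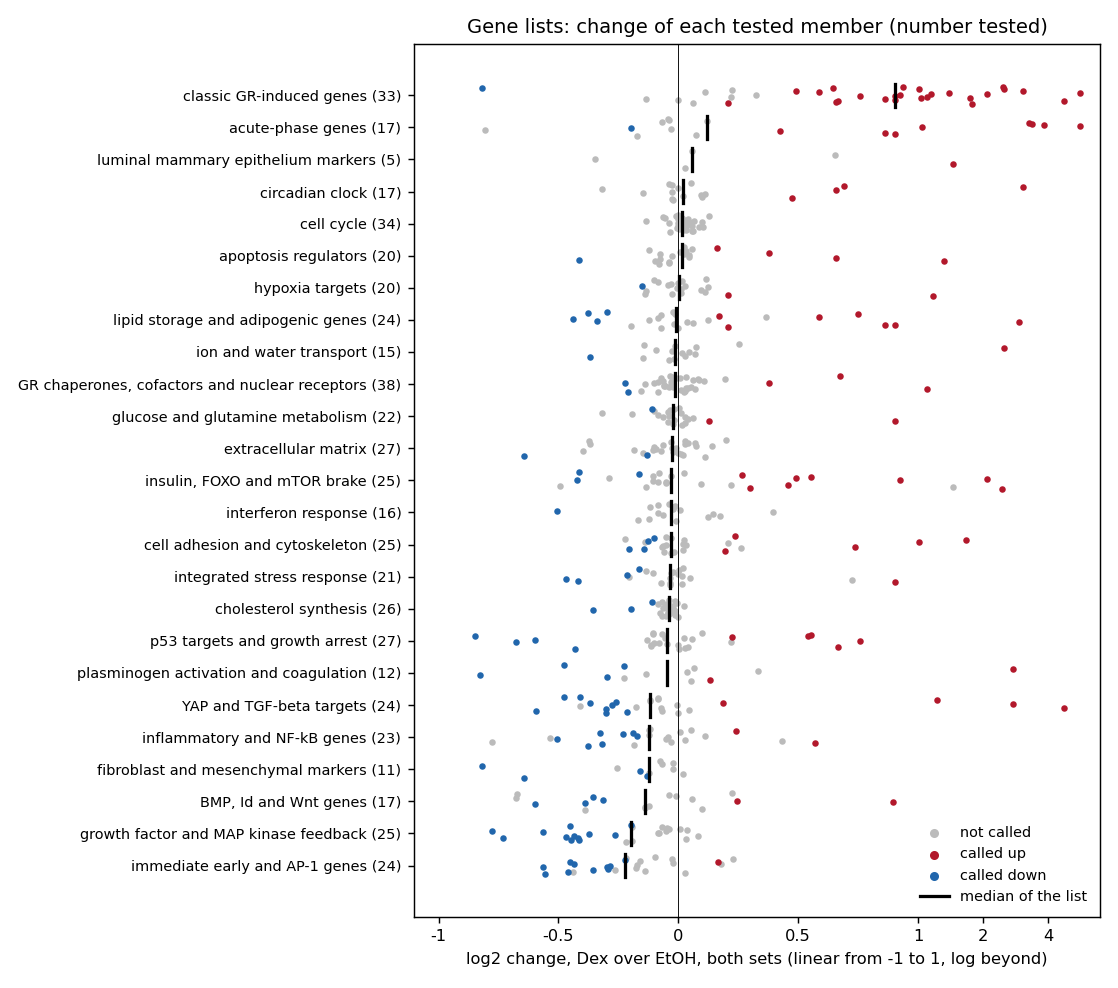
Log2 change with Dex over both sets (x axis, linear from -1 to 1 and logarithmic beyond) for the tested members of each list with at least 5 of them (y axis, number tested in brackets), red called up, blue called down, grey not called, with black bars at medians. Classic GR-induced genes have a median of 0.90 with 25 of 33 red, the lowest medians are -0.22 (immediate early) and -0.20 (feedback), and most other medians are near 0. The lists were chosen with earlier results of these data known.

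Gata3, a luminal transcription factor, stood at 6.87, 7.09 and 7.03 CPM in the EtOH libraries and 18.9, 21.1 and 18.1 CPM in the Dex libraries of set 1, and 6.58 and 7.63 against 21.4 and 17.3 CPM in set 2 (1.46 ± 0.0677). It made up much of the summed level of the 5 tested luminal markers, which was 10.6 to 13.3 CPM in EtOH and 22.8 to 26.1 with Dex over both sets. The other tested luminal markers were not called, and Epcam stayed at 0. Fibroblast and mesenchymal markers fell in 4 of 11 members and rose in none: Snai2, Col1a1 (-0.64 ± 0.159), Pdgfrb (-0.16 ± 0.0341) and Col1a2 (-0.13 ± 0.0341). Their summed level was 8231 to 8266 CPM in EtOH and 7724 to 8053 with Dex in set 1, and 6722 to 6912 against 6610 to 6622 in set 2. Vim (-0.02), which supplied most of that sum, did not pass. Col1a1, at no more than 154 counts, was not called without Dex or EtOH replicate 3 of set 1 or EtOH or Dex replicate 1 of set 2. Col1a2 was not called without Dex replicate 1 or 3 or EtOH replicate 2 or 3 of set 1. Of 13 tested basal, immune, endothelial and adipocyte markers 0 were called by edgeR or DESeq2, and 1 had an unadjusted p below 0.05. Extracellular matrix genes fell in 2 of 27, the collagens just named. In adhesion and cytoskeleton 5 of 25 rose and 4 fell. Tns1, the focal adhesion protein tensin 1, went from 13.9, 14.9 and 15.4 CPM to 48.6, 49.2 and 45.3 CPM in set 1 and from 15.7 and 15.2 to 56.1 and 39.3 CPM in set 2 (1.67 ± 0.0726). Rhob, a small GTPase of endosomes and actin, went from 64.4, 58.5 and 60.99 CPM to 118, 116 and 114 CPM in set 1 and from 65.6 and 62.3 to 145 and 135 CPM in set 2 (1.00 ± 0.0427), and Itga5, the fibronectin receptor subunit, rose by 0.74 ± 0.0621. Interferon genes had 1 call among 16, the fall of Irf1, a share of 6.25% beside 4.66% of all genes called.

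Strong increases outside these lists belonged to varied functions. Spsb1, an adaptor of a ubiquitin ligase, stood at 7.58, 6.48 and 8.05 CPM in the EtOH libraries and 40.7, 46.03 and 43.7 CPM in the Dex libraries of set 1, and 8.24 and 7.71 against 53.3 and 46.8 CPM in set 2 (2.60 ± 0.06004). Tsku, the secreted leucine-rich protein tsukushi, stood at 31.2, 29.3 and 31.98 CPM in the EtOH libraries and 136, 141 and 140.2 CPM in the Dex libraries of set 1, and 35.4 and 33.98 against 181 and 163 CPM in set 2 (2.23 ± 0.0412). S100a7a, a calcium-binding S100 protein, went from 1.54, 1.24 and 1.67 CPM to 8.12, 8.36 and 8.68 CPM in set 1 and from 0.371 and 0.727 to 5.36 and 4.45 CPM in set 2 (2.72 ± 0.152). These libraries were apart by treatment in each set, which the rule for naming the highest changes required. Arl4d (2.29 ± 0.0711), a small GTPase, and Map7d2 (2.24 ± 0.0799), a microtubule-associated protein, rose too. Sdc4, the heparan sulfate proteoglycan syndecan 4, went from 279.7, 286 and 266 CPM to 514, 534 and 519 CPM in set 1 and from 221 and 198 to 457 and 460.0 CPM in set 2 (1.00 ± 0.0413). Hras rose by 0.32 ± 0.0502 (adjusted p = 0.000325), from 120.5, 117 and 116 CPM to 139, 133 and 139 CPM in set 1 and from 118 and 102 to 161 and 145 CPM in set 2. As background, 3617 cells carry an array of Dex-responsive MMTV promoters driving a ras gene, and its reads cannot be told apart from Hras in these counts. Strong decreases outside the lists were Clec2d (-0.65 ± 0.101), a lectin-like receptor ligand, Ccng2 (-0.65 ± 0.111), an unconventional cyclin, and Ahr (-0.60 ± 0.0509), the dioxin receptor, which went from 31.6, 29.5 and 34.4 CPM to 20.9, 19.95 and 22.4 CPM in set 1 and from 23.9 and 26.9 to 16.6 and 16.8 CPM in set 2.

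Summed over genes, the 449 that rose took 2.739% to 2.745% of counts in the EtOH libraries of set 1 and 3.52% to 3.53% with Dex. In set 2 they took 2.75% to 2.76% and 3.64% to 3.71%. The 321 that fell went from 3.23% to 3.33% down to 2.75% to 2.88% in set 1, and from 3.38% to 3.48% down to 2.83% to 2.93% in set 2. Single abundant genes made up a part of these totals, and the rest was spread over the other called genes. Sgk1 gained 667 CPM on average over the sets, Ccn2 259, Sdc4 247, Plin4 178 and Tsc22d3 133. Thbs1 fell by 821 CPM, the actin crosslinker Flna by 243, Col1a2 by 196, Aqp5 by 130, Plk2 by 120 and the plakin Plec by 119. The calls of Flna (-0.14 ± 0.0327) and Plec (-0.17 ± 0.0399) were lost without Dex replicate 1 or 3 of set 1, and that of Plec also without EtOH replicate 3 of set 1.

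Several genes went from near 0 to a low level, and are given as raw counts, in which a read pair can count 2. B4galnt4, a glycosyltransferase gene, had 0, 0 and 0 counts in EtOH and 11, 24 and 18 with Dex in set 1, and 0 and 2 against 36 and 11 in set 2. Pkd2l1, a cation channel gene, had 0, 2 and 2 counts in EtOH and 13, 22 and 21 with Dex in set 1, and 0 and 0 against 38 and 18 in set 2. Abhd6, a lipid hydrolase gene, had 0, 0 and 4 counts in EtOH and 13, 27 and 18 with Dex in set 1, and 2 and 0 against 49 and 21 in set 2. Each passed the test with no overlap of libraries within a set, but both were conditions for naming genes at this level. They passed the filter on low counts through their Dex libraries. Slc45a3, a transporter gene, had 2, 1 and 2 counts in EtOH and 20, 8 and 24 with Dex in set 1, and 0 and 2 against 56 and 31 in set 2. Odf3l2 had 0, 0 and 2 counts in EtOH and 6, 25 and 27 with Dex in set 1, and 4 and 0 against 43 and 20 in set 2, and the pheromone receptor gene Vmn1r40 had 2, 0 and 0 counts in EtOH and 9, 10 and 9 with Dex in set 1, and 0 and 0 against 6 and 6 in set 2. Gimap6, a lymphocyte GTPase gene, fell, with 18, 22 and 10 counts in EtOH and 2, 2 and 3 with Dex in set 1, and 10 and 10 against 4 and 0 in set 2. Usp17la, a deubiquitinase gene, fell from 106, 110 and 99 counts to 33, 48 and 28 in set 1 and from 134 and 164 to 82 and 104 in set 2. Tecta, an inner ear matrix gene, fell with 21, 47 and 23 counts in EtOH and 9, 8 and 13 with Dex in set 1, and 26 and 33 against 16 and 9 in set 2, and Rhbdl1, a rhomboid gene, with 14, 24 and 28 counts in EtOH and 4, 9 and 7 with Dex in set 1, and 37 and 38 against 22 and 11 in set 2. Their calls were lost without each library in turn, apart from EtOH replicate 1 of set 1, Dex replicate 1 of set 2 and, for Tecta, Dex replicate 3 of set 1. Gm6093 and Fam107a, shown above for their promoter letters, had 2, 2 and 0 counts in EtOH and 26, 19 and 13 with Dex in set 1, and 0 and 4 against 93 and 58 in set 2 and 0, 0 and 2 counts in EtOH and 9, 10 and 12 with Dex in set 1, and 0 and 0 against 2 and 4 in set 2.

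By annotated type, 408 of 12142 protein-coding genes rose and 312 fell (5.93% called together), against 37 and 6 of 2744 long non-coding and unclassified transcripts (1.57%). Of the 37 that rose, 23 (62.2%) lay within 10 kb of a coding gene that rose, compared with 99 of 2701 uncalled transcripts (3.67%). Total RNA holds unspliced transcripts, and the annotation places some non-coding transcripts in introns of a coding gene on the same strand with no exonic base in common. Counts there cannot tell a separate transcript from unspliced RNA of the host. There were 57 such tested transcripts in 33 genes that rose, and 54 of the 57 had a positive change, with a median of 0.66 log2 against 0.22 for their hosts. In 45 of the 57 the change exceeded that of the host's exons, and 16 were called up and none down. In 597 uncalled hosts, 358 of 867 such transcripts had a positive change, with a median of -0.07, and 377 exceeded the change of their host. In 16 hosts that fell, 5 of 32 were positive, with a median of -0.36 against -0.22 for the hosts, and 11 exceeded the change of their host. Transcripts of the same host share its RNA, so the counts are a description without a test. Transcripts of few counts can pass the filter on low counts through their Dex libraries alone.

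**Figure D5:**
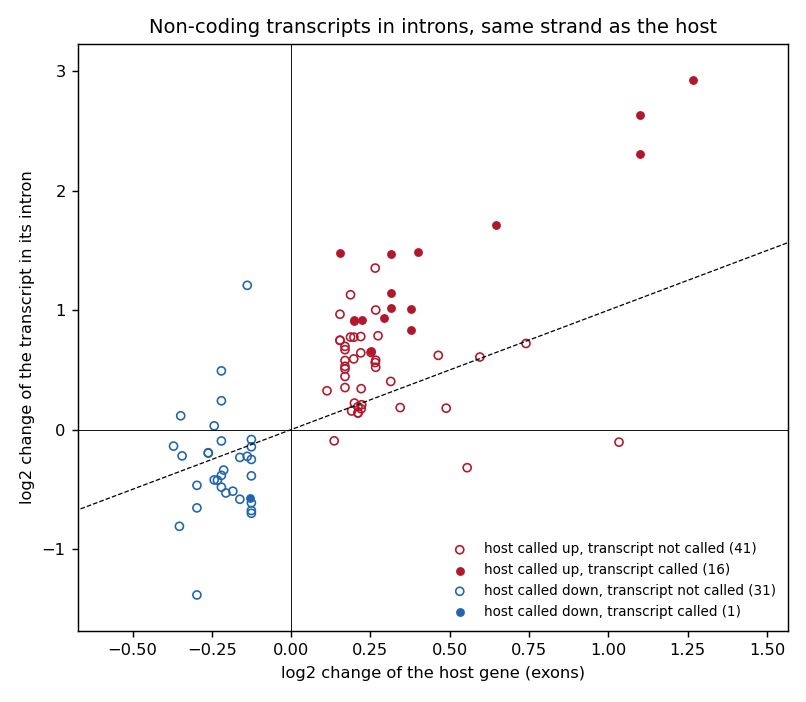
Log2 change of each non-coding transcript lying in an intron (y axis) against the change of its host gene's exons (x axis), for 57 transcripts in hosts called up (red) and 32 in hosts called down (blue), filled where the transcript itself was called, with a dashed line of equal change. Of the red points 45 lie above the line, including all 16 filled ones. A transcript of few counts is called only at a large change, so the place of the filled points was partly fixed by the threshold.

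Fkbp5 held 2 of them, named after their values were seen. AC154912.3 (mm10 chromosome 17, 28457484 to 28461095, minus strand) had 16, 24 and 24 counts in EtOH and 139, 122 and 159 with Dex in set 1, and 68 and 116 against 560 and 283 in set 2. AC154912.5 (28424723 to 28426430) had 34, 31 and 25 counts in EtOH and 113, 96 and 136 with Dex in set 1, and 53 and 91 against 473 and 222 in set 2. Their changes were 2.64 ± 0.204 and 2.31 ± 0.1903, against 1.10 for the exons of Fkbp5. Gm45457 lies in Sorbs2, which encodes an actin-associated adaptor, and had 0, 6 and 2 counts in EtOH and 24, 16 and 41 with Dex in set 1, and 10 and 10 against 68 and 30 in set 2, a change of 2.93 ± 0.451 against 1.27 ± 0.0998 for Sorbs2. In both genes the intronic counts rose by more log2 units than the exonic ones.

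Taken one set at a time in a joint fit, 469 genes were called in set 1 (2.84%), 311 up and 158 down, and 585 in set 2 (3.54%), 366 up and 219 down. That fit shares its estimate of the spread over both sets, although replicates of set 2 lay farther apart than those of set 1. With each set fitted alone, 864 genes were called in set 1 and 217 in set 2, so the order of the sets depends on the shared spread. In the joint fit, 236 genes rose and 93 fell in both sets. The set 2 number ran from 356 without Dex replicate 2 to 1274 without EtOH replicate 1 of that set, and the set 1 decreases fell to 101 without Dex replicate 1, 102 without Dex replicate 3 and 104 without EtOH replicate 1 of set 1. A difference between the sets passed edgeR's test in 3 genes (0.0181%), while before adjustment 1173 had p below 0.05, and DESeq2 called 31. The number was 264 without EtOH replicate 1 of set 2, 5 without its EtOH replicate 2 or Dex replicate 1, 6 without its Dex replicate 2, and 156 without a filter on low counts. The 3 genes were Orm3, Adm, which encodes the vasodilator adrenomedullin, and Errfi1, all rising more in set 2. Adm went from 20.9, 19.9 and 19.4 CPM to 38.3, 38.6 and 36.5 CPM in set 1 and from 15.1 and 15.1 to 43.6 and 45.8 CPM in set 2. Of the 449 genes that rose, 276 had the larger change in set 2, and of the 321 that fell, 182 were more negative there. The labels name different stranded kits for different batches without assigning them to libraries, so kit, batch and set cannot be told apart.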

How the data were processed

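The deposited files hold raw counts per gene name for each library. Per the file headers, the authors counted reads over exons with featureCounts 2.0.3 on mm10 with the GENCODE vM21 annotation, strand option 2, each mate of a pair counted by itself. Per the submitters' processing notes, bcl2fastq 2.17, cutadapt and STAR were also used. Of 55341 gene names, 108 combine several gene identifiers.

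The 10 wild-type libraries were fitted with edgeR 4.0.16 in R 4.3.3 (filterByExpr, TMM, quasi-likelihood test), with the set as a block and 7 residual degrees of freedom. P-values were Benjamini-Hochberg adjusted over 16540 genes. Values by set, and their difference, came from a fit of one mean per set and treatment. SE is the log2 change divided by the square root of F. The procedure was checked on simulated counts with known changes. No test over a list was run.

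Genes named are, beside fixed GR targets and up to 4 called members per list, the 15 highest and 15 lowest called changes at an average log2 CPM of at least 1 without overlap, 6 and 4 below that level, and the 6 largest rises and 6 largest falls in CPM. Genes with clone names were passed over, and a few genes that the rule or the lists hold are not reported here. Other list members are named to account for a list's calls or for their known role, with their values seen. The libraries, lists and fixed names were chosen with earlier results of these data known.

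Alternatives were DESeq2 1.42.0, its size factors, no filter on low counts, a replicate block, all 34 libraries, other models of the set and each library left out. Same-numbered Dex and EtOH libraries did not deviate together (correlations of -0.0664 to 0.00759 in set 1 and -0.491 in set 2), so the numbers were not used as pairs. Promoter windows and their letters came from RefSeq on GRCm38.p6, matched by symbol for 10197 tested genes. The Drosophila spike-in was not used, because the tables hold mouse genes.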

Additional observations from a re-analysis of the deposited data

Results flagged for a closer look

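The change with Dex differed between the library sets for 3 genes by edgeR's quasi-likelihood test of the interaction, each larger in set 2. For Orm3, set 2 exceeded set 1 by 1.34 log2 (adjusted p = 0.0145), with changes of 2.56 in set 1 and 3.89 in set 2. That call was lost without Dex replicate 1, Dex replicate 2 or EtOH replicate 1 of set 1. For Adm the difference was 0.66 (adjusted p = 0.00341), from 0.91 in set 1 to 1.57 in set 2. For Errfi1 it was 0.58 (adjusted p = 0.00341), from 1.503 to 2.083, and the call was lost with the replicate block (adjusted p = 0.0698). In all 3 genes every Dex library lay above every EtOH library of its set, so the sets differed in size and not in direction.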

How the results depend on the processing

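No alternative reversed the direction of a called named gene or of a flagged difference between sets. Over the named genes, 2213 values in alternatives kept their side of the threshold, 81 lost it and 1 gained it. The losses included Pdgfrb, with the replicate block and with all 34 libraries fitted. The cause of the following shifts was not tested. Without a filter on low counts, decreases numbered 519 over both sets, 44 at 1.5-fold and 266 in set 1, set 2 had 903 calls (440 down), and 156 genes differed between sets. DESeq2 gave 31 such genes. With all 34 libraries fitted, set 2 had 120 decreases. With only set 1 fitted, set 1 had 864 calls (475 up, 389 down), and with only set 2 fitted, set 2 had 217 (168 up, 49 down).

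With the replicate block, 543 genes were called over both sets (204 down, 15 of them at 1.5-fold), set 1 had 98 decreases and set 2 had 316 calls (227 up, 89 down). No library correlated best with its own number. With the set 2 numbers crossed, an alternative chosen after seeing the data, the block gave 278 decreases in set 1, 1115 calls in set 2 (567 up, 548 down) and 126 differences.

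Leaving out each library in turn gave 602 to 877 calls over both sets and 15 to 23 decreases at 1.5-fold. Set 1 decreases ran from 101 to 235. Set 2 ran from 356 to 1274 calls, 264 to 651 up and 92 to 623 down, lowest without its Dex replicate 2 and highest without its EtOH replicate 1. Without its EtOH replicate 2 set 2 had 135 decreases, and without its Dex replicate 1 it had 390. Differences between sets numbered 2 to 264, and without EtOH replicate 1 of set 2 they were 264. A set 2 group left with 1 library was assumed to vary like the others. Depth limits genes of a few counts, and the log2 changes printed for Gm45457, Lcn2, Cdkn1c and Hsd11b1 rest on low counts in EtOH.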
